A study of Mus musculus with 8 samples.

Results

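The Slit, Robo, netrin and netrin receptor genes described here are 10 of the 23420 genes in the deposited table, taken by symbol: Slit1, Slit2, Slit3, Robo1, Robo2, Ntn1, Ntn4, Unc5b, Unc5c and Dcc. They were measured by RNA-seq in mesenchyme dissected from the heads of C57BL/6 mice, all wild type, at E12.5, with surface ectoderm and brain removed. The compared regions were the supraorbital mesenchyme (SOM) and the early migrating mesenchyme (EMM). Each region had 4 libraries, each made from the pooled tissue of 4 to 5 embryos. A dispase digest preceded the removal of ectoderm and brain in all samples, and genotype, strain and age were the same in both groups. Values are the authors' normalized counts, which are read counts divided by a size factor for each library.

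Slits are large secreted proteins, and Robo proteins are the transmembrane receptors that bind them. The pair is best known for repelling growing axons at the midline of the nervous system, and it also acts on migrating cells and blood vessels. Netrin-1 is a secreted cue that attracts axons through the receptor DCC, while receptors of the UNC5 family mediate repulsion, alone or together with DCC. UNC5 receptors and DCC are also known as dependence receptors, which can trigger cell death when no ligand is bound.

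The libraries held between 16.8 and 33.7 M gene-assigned reads in SOM and between 12.7 and 22.4 M in EMM. Of 9 head mesenchyme markers, 3 were higher in SOM and 6 in EMM, and none was at 0. By the test given below, 36.0% of all tested genes were higher in SOM and 36.1% in EMM. The summed level of the 9 head mesenchyme markers lay between 314542 and 370648 normalized counts in SOM and between 843837 and 979387 in EMM, most of it from Col1a1, Col1a2 and Col3a1. The blood vessel gene list summed to between 12967 and 15457 in SOM and between 16804 and 22454 in EMM, and the pericyte and smooth muscle list to between 14504 and 17165 in SOM and between 65895 and 73885 in EMM. The summed level of the red blood cell list was highest in EMM replicate 3. Since these are bulk samples, fewer cells of a type and less RNA per cell cannot be told apart.

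Dcc, Unc5b and Ntn1 were higher in SOM, and Unc5c, Ntn4, Slit3, Slit2, Slit1 and Robo1 were higher in EMM. The remaining gene, Robo2, did not pass the test. With limma and Benjamini-Hochberg adjustment over all tested genes at 0.05, 3 of the 10 genes were thus called higher in SOM and 6 in EMM, where the share of all 14249 tested genes was 36.0% higher in SOM and 36.1% higher in EMM. Slit1 entered the test only because its 4 EMM libraries reached 10 normalized counts. Under that filter it could be called only as higher in EMM. Its call and its lack of overlap, which the counts here include, are therefore no support. Without a filter its log2 difference was also -0.77 (limma adjusted p = 0.0361). With a filter at 50, which left Slit1 out, 3 genes were called higher in SOM and 5 in EMM. The groups did not overlap for 9 of the 10 genes, 3 higher in SOM and 6 in EMM, where this held for 66.1% of all tested genes, 32.9% higher in SOM and 33.2% higher in EMM. The median absolute log2 difference was 1.21 for the 10 genes and 0.40 for all tested genes. A difference of at least 2-fold was called for Dcc and Unc5b in SOM and for Unc5c, Ntn4, Slit3 and Slit2 in EMM, which makes 2 and 4 genes, where the share of all tested genes was 5.19% and 11.0%. The genes were chosen with earlier results known, so these shares are a description.

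**Figure D1:**
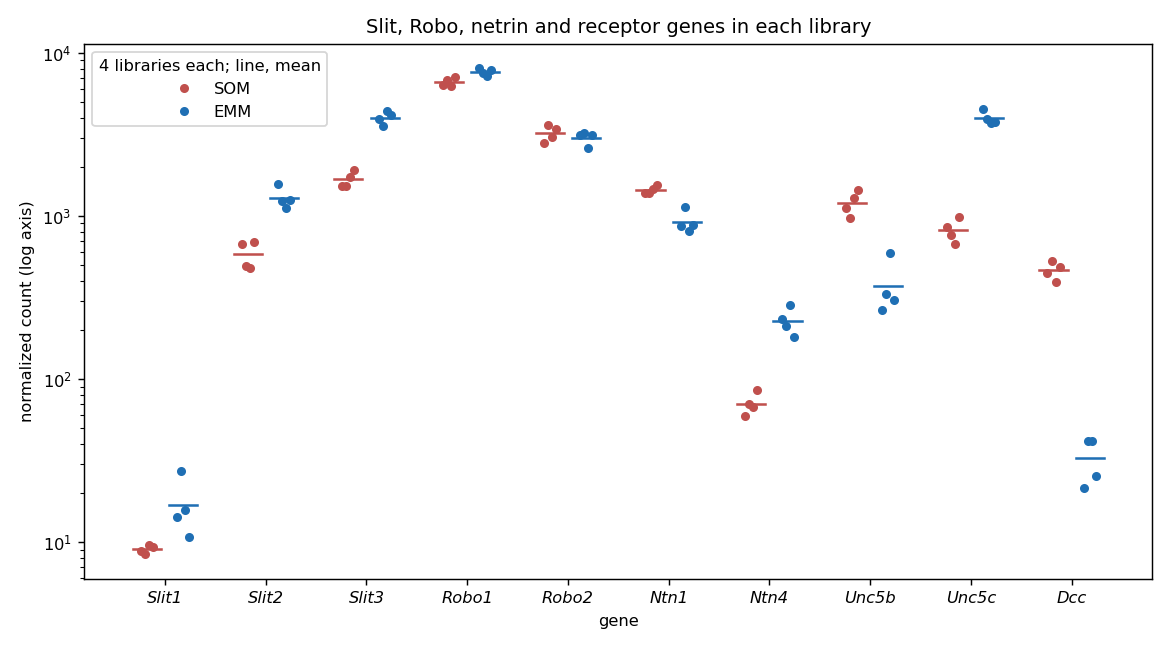
Normalized counts of the 10 genes on a log axis, with 1 point for each library, SOM to the left of EMM, and a line at each mean. Dcc lies between 393 and 530 in SOM and between 21.5 and 41.8 in EMM, and only Robo2 has groups that overlap.

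**Figure D2:**
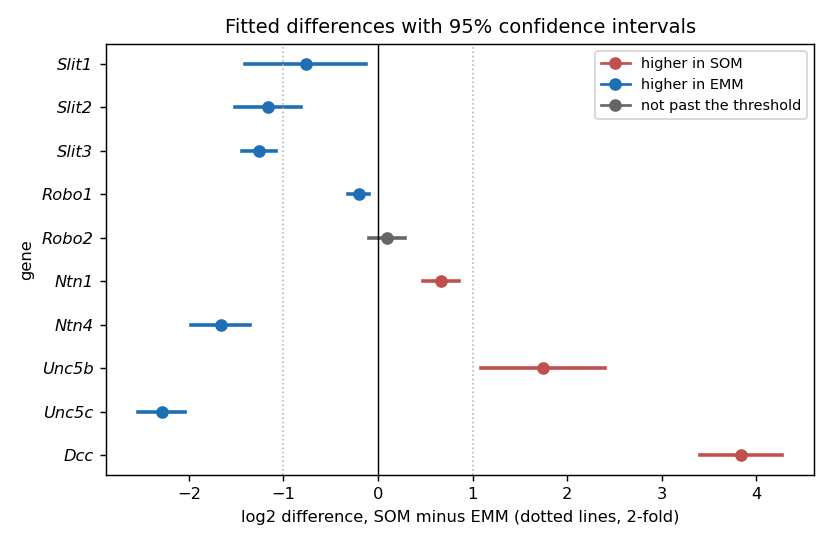
Fitted log2 differences, SOM minus EMM, with 95% confidence intervals from limma over 4 libraries per group, where dotted lines mark 2-fold. Dcc stands at 3.84 and Unc5c at -2.29, and the interval of Robo2 includes 0.

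Slit2 and Slit3 sequences are shown for what the paralogs share. Both genes carry a copy of the microRNA gene Mir218 on their own strand, within an intron in the GENCODE M21 annotation of GRCm38. Slit2 lies on chromosome 5 from 47983138 to 48307733 with Mir218-1 at 48223942 to 48224051, and Slit3 lies on chromosome 11 from 35121224 to 35708507 with Mir218-2 at 35616816 to 35616925. The mature 5′ arm is the same from both copies and the 3′ arms differ, as the RefSeq sequences (GRCm38.p6) show, with the seed (bases 2 to 8) in capitals.
mmu-miR-218-5p: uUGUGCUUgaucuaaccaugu
mmu-miR-218-1-3p: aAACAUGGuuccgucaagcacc
mmu-miR-218-2-3p: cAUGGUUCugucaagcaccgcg
The entries of the microRNA genes themselves held almost nothing. Mir218-1 had 0 reads in SOM and 0 in EMM, and Mir218-2 had 2 reads in SOM and 0 in EMM, all of which is at or under the limit of 3 reads that a count of 0 allows, so the level of the microRNA cannot be read from these libraries.

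The region around the RefSeq start site is shown for Slit2 and Slit3, which moved together, and for Unc5b and Unc5c, which moved apart. Each sequence runs from 250 bases before to 50 bases after the RefSeq start on GRCm38.p6, given on the gene's strand. Capitals mark matches on either strand to the GC box, GGGCGG, or to the TATA box, TATAAA, and matches may overlap. The windows are chr5:47982905-47983204 (plus strand) for Slit2, chr11:35121206-35121505 (plus strand) for Slit3, chr10:60831532-60831831 (minus strand) for Unc5b and chr3:141465314-141465613 (plus strand) for Unc5c. In GENCODE M21, Unc5c starts at 141465216 and Slit3 at 35121224. By that annotation the whole Unc5c window and most of the Slit3 window lie after the gene start. Those of Slit2 and Unc5b lie mostly before it.
Slit2: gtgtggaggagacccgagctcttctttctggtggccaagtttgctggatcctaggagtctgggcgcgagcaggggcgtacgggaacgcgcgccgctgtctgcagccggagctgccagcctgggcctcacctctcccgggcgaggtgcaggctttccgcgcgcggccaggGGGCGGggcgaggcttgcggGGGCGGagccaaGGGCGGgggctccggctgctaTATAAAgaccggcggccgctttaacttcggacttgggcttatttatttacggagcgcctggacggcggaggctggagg
Slit3: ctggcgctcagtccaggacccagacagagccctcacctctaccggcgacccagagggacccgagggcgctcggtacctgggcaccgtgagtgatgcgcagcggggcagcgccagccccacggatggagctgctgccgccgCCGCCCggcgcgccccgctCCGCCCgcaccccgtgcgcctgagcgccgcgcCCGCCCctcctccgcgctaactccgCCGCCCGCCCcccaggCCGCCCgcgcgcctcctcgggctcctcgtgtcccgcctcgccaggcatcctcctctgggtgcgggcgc
Unc5b: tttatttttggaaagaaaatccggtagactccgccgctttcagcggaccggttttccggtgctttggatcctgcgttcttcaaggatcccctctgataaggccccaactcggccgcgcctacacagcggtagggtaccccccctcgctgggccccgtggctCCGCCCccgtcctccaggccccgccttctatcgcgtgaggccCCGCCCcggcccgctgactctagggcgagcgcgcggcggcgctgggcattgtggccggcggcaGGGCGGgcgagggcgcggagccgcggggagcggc
Unc5c: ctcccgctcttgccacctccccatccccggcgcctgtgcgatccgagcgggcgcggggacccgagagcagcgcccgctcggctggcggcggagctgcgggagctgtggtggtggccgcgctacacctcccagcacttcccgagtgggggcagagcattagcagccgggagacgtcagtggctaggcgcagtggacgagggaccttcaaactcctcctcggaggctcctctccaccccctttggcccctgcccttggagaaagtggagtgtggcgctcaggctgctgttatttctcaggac
The 4 windows were rich in G and C, at 68.0% for Slit2, 78.3% for Slit3, 69.7% for Unc5b and 68.3% for Unc5c, where the median of all 32851 promoter windows was 52.7%. The GC box occurred 3 times in Slit2, 6 times in Slit3, 3 times in Unc5b and 0 times in Unc5c, and 35.7% of all windows held it. The TATA box occurred once, in Slit2, and 13.6% of all windows held it. The homeodomain core, TAATTA, and the E-box, CAGCTG, which were in 5.29% and 16.3% of all windows, did not occur in these 4.

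Among the Slit ligands, Slit3 and Slit2 were both lower in SOM. Slit3 had 1524, 1527, 1742 and 1921 normalized counts in SOM replicates 1 to 4, against 3911, 3570, 4383 and 4175 in EMM replicates 1 to 4. Every SOM library lay below every EMM library, and the mean was 2.39-fold higher in EMM. The fitted log2 difference (SOM minus EMM) was -1.26 (SE 0.08, limma adjusted p = 1.81e-08). Slit2 had 672, 491, 479 and 688 normalized counts in SOM, against 1573, 1244, 1122 and 1245 in EMM. Its groups were also apart, with the highest EMM value in replicate 1, and its log2 difference was -1.16 (SE 0.15, limma adjusted p = 0.000134).

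A difference in the balance of these ligands was not detectable between the regions. The log2 ratio of Slit2 to Slit3, taken per kb of exon within each library, averaged -3.61 ± 0.29 in SOM and -3.70 ± 0.28 in EMM (SD, n = 4 each). The groups overlapped (two-sided exact permutation test, p = 0.629, the same after adjustment over 5 ratios). Slit3 made up 91.9% ± 1.42 of the summed Slit level per kb in SOM and 92.4% ± 1.36 in EMM. With the longest transcript of each gene as the length in place of all exons together, these shares were 84.2% in SOM and 85.1% in EMM.

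Slit1, the third ligand, best known from the nervous system, lies on chromosome 19 from 41600257 to 41743665 and was near the lower limit of the measurement. Its 4 libraries summed to 48 reads in SOM and 52 in EMM. It had 8.81, 8.40, 9.57 and 9.35 normalized counts in SOM, against 14.3, 27.1, 15.7 and 10.8 in EMM. The EMM libraries were all above the SOM libraries, but the spread within EMM was wide and the value of replicate 2 stood highest. The log2 difference was -0.77 (SE 0.30, limma adjusted p = 0.0315), and the call was lost without SOM replicate 1, 2 or 3 (limma adjusted p between 0.0510 and 0.0630) and with DESeq2 on recovered reads (adjusted p = 0.0731). In the authors' deposited table its adjusted p was 0.0825, and it was one of 2 of the 10 genes, with Robo2, that did not pass there.

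The Robo receptors had the smallest differences of the 10 genes. Robo1, a receptor for Slits, had 6382, 6861, 6303 and 7071 normalized counts in SOM, against 8050, 7501, 7227 and 7868 in EMM. The groups did not overlap but lay close, with a mean 1.15-fold higher in EMM and a log2 difference of -0.20 (SE 0.05, limma adjusted p = 0.00220). Robo2, its close paralog, had 2811, 3628, 3061 and 3438 normalized counts in SOM, against 3125, 3212, 2612 and 3134 in EMM. These ranges overlapped, and the log2 difference was 0.10 with a 95% confidence interval from -0.09 to 0.28 (limma adjusted p = 0.331). Both genes lie on chromosome 16, Robo1 from 72308306 to 73046095 and Robo2 from 73891839 to 74411825.

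The ratio of the Robo genes differed between the regions by a small amount. The log2 ratio of Robo1 to Robo2 per kb averaged 1.09 ± 0.11 in SOM and 1.39 ± 0.10 in EMM (SD, n = 4 each). It was between 0.96 and 1.22 in SOM libraries and between 1.26 and 1.51 in EMM libraries, without overlap. The two-sided exact permutation test gave p = 0.0286, the smallest that 4 against 4 libraries allow, and 0.0357 after adjustment over 5 ratios. The adjusted value is this low only because Ntn1 over Ntn4, Unc5b over Unc5c and Dcc over Unc5c reached the same p. Their separation was fixed by the values of the single genes, so the adjusted value is no independent support for the Robo ratio.

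The netrins split between the regions. Ntn1 encodes netrin-1, the ligand of DCC and UNC5 receptors, and lies on chromosome 11 from 68209364 to 68400823. It had 1388, 1392, 1470 and 1551 normalized counts in SOM, against 866, 1130, 807 and 886 in EMM. All SOM libraries were higher, by 1.57-fold in the mean and by 0.66 on the log2 scale (SE 0.09, limma adjusted p = 1.52e-05). The floor plate of the neural tube is a known source of netrin-1, and of its markers Foxa2 was at 0 in all libraries. The floor plate list of 4 genes summed to between 662 and 749 in SOM and between 59.6 and 73.6 in EMM, with Spon1 averaging 658 in SOM and 37.8 in EMM. The part of such cells in the Ntn1 difference was not tested.

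Ntn4 encodes netrin-4, which resembles laminin chains and binds basement membrane laminin, and it lies on chromosome 10 from 93640681 to 93747207. It had 59.2, 69.97, 67.7 and 86.1 normalized counts in SOM, against 235, 211, 283 and 180 in EMM. The groups were far apart, with a mean 3.22-fold higher in EMM and a log2 difference of -1.67 (SE 0.15, limma adjusted p = 4.81e-08). Within libraries, the log2 ratio of Ntn1 to Ntn4 per kb averaged 3.62 ± 0.16 in SOM and 1.28 ± 0.41 in EMM (SD, n = 4 each), a 5.08-fold difference of the ratio (two-sided exact permutation p = 0.0286, adjusted 0.0357). Since Ntn1 was higher in every SOM library and Ntn4 in every EMM library, that p was fixed and adds nothing to their calls. Ntn4 took 7.54% ± 0.80 of the summed level of these netrins per kb in SOM and 29.4% ± 6.00 in EMM.

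The netrin receptors showed the largest differences, and the UNC5 paralogs moved in opposite directions. Dcc, the attractive netrin-1 receptor on chromosome 18, had 445, 530, 393 and 488 normalized counts in SOM, against 21.5, 41.6, 41.8 and 25.6 in EMM. All SOM libraries lay far above all EMM libraries. The mean was 14.2-fold higher in SOM, and the log2 difference was 3.84 (SE 0.20, limma adjusted p = 2.60e-09). Of all tested genes, 55 including Dcc had a difference toward SOM at least as large. The EMM libraries held 103 Dcc reads in all, so the gene was detected there at a low level.

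Neuron and glia markers moved with Dcc in part, where 36.0% of all tested genes were higher in SOM and 36.1% in EMM. Of 12 neuron markers, 6 were higher in SOM, 3 in EMM, 1 did not pass and 2 were not tested, and their sum lay between 4881 and 5297 in SOM and between 2092 and 2615 in EMM. Gap43, Tubb3 and Stmn2 made up most of that sum, averaging 1744, 1502 and 1057 in SOM and 651, 663 and 114 in EMM. Dcx, Elavl3 and Syt1 averaged 3.32, 3.54 and 15.6 normalized counts in SOM and 19.1, 20.8 and 131 in EMM. Of these, Elavl3 was low and entered the test only through its EMM libraries. Dcx was not tested, with 18 reads in SOM and 60 in EMM. Isl1, also not tested, held 77 reads in SOM and 1 in EMM. Of 9 glia and melanoblast markers, SOM was higher for 7 and EMM for 2, and the list summed to between 1144 and 1317 in SOM and between 323 and 356 in EMM. The part of these cells in the Dcc difference was not tested.

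Unc5b, a netrin receptor known from blood vessel endothelium, lies on chromosome 10 from 60762593 to 60831581. It had 1122, 968, 1298 and 1444 normalized counts in SOM, against 267, 331, 592 and 304 in EMM. Every SOM library was higher, by 3.24-fold in the mean and by 1.75 on the log2 scale (SE 0.27, limma adjusted p = 0.00101). EMM replicate 3 stood above the other 3 EMM libraries, and without it the log2 difference was 1.99. Of 10 endothelial markers, SOM was higher for 2 and EMM for 6, while 2 did not pass, and EMM replicate 3, the EMM library with the highest Unc5b value, also had the highest endothelial sum of all 8 libraries, at 22454. Among all tested genes, 36.0% were higher in SOM and 36.1% in EMM. The part of endothelial cells in the Unc5b difference was not tested.

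Unc5c, a paralog known for repulsive guidance of migrating neurons, lies on chromosome 3 from 141465216 to 141834924 and shares 118 exonic bases with the antisense gene Gm15688. It had 860, 770, 672 and 985 normalized counts in SOM, against 4524, 3915, 3732 and 3782 in EMM. The groups were widely apart, with a mean 4.85-fold higher in EMM and a log2 difference of -2.29 (SE 0.11, limma adjusted p = 2.83e-08). Toward EMM, 323 of the tested genes including Unc5c had a difference at least as large. Pericyte and smooth muscle markers, of which 1 of 10 was higher in SOM and 9 in EMM, and macrophage markers, of which 9 of 9 were higher in EMM with sums between 2860 and 3313 in SOM and between 13618 and 17055 in EMM, moved the same way as Unc5c, Slit2, Slit3 and Ntn4. Of 9 tested surface ectoderm markers 0 were higher in SOM and 3 in EMM, and the list summed to between 1605 and 2091 in SOM and between 4200 and 4621 in EMM. Most of that sum was Cdh3, at a mean of 1488 in SOM and 3515 in EMM. The other 6 tested markers, with Krt5, Krt14 and Trp63 among them, did not pass. Of 5 tested skeletal muscle markers SOM was higher for 0 and EMM for 4, Myf5 was at 0 in all libraries, and the list summed to between 134 and 174 in SOM and between 410 and 642 in EMM. Most of the EMM sum was Myh8, which averaged 361 there and 39.7 in SOM. Of 5 tested brain progenitor markers 1 was higher in SOM and 3 in EMM, and that list summed to between 3283 and 3492 in SOM and between 7618 and 8886 in EMM. Most of this sum was Nes, at a mean of 2474 in SOM and 7895 in EMM. Emx2, the 1 higher in SOM, averaged 880 in SOM and 132 in EMM. All 6 tested red blood cell markers were higher in EMM. These counts stand beside shares of all tested genes of 36.0% higher in SOM and 36.1% higher in EMM. The part of the cells that these 6 lists mark in the differences was not tested.

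Among Unc5b, Unc5c and Dcc, the transcript with the largest share differed between the regions. Within libraries, the log2 ratio of Unc5b to Unc5c per kb averaged 2.17 ± 0.28 in SOM and -1.87 ± 0.60 in EMM (SD, n = 4 each), a 16.4-fold difference of the ratio. For Dcc over Unc5c it averaged -0.28 ± 0.21 in SOM and -6.45 ± 0.59 in EMM, a 72.1-fold difference. For each ratio the groups did not overlap (two-sided exact permutation p = 0.0286, adjusted 0.0357). Every SOM library was higher for Unc5b and Dcc and every EMM library for Unc5c, so this outcome was fixed. The test thus adds nothing to the calls of the single genes. Of the summed level of Unc5b, Unc5c and Dcc per kb, Unc5b made up 70.9% ± 4.38 in SOM and 21.8% ± 7.33 in EMM. Unc5c made up 15.9% ± 2.07 in SOM and 77.2% ± 7.51 in EMM, and Dcc made up 13.2% ± 2.76 in SOM and 0.915% ± 0.286 in EMM. With the longest transcript as the length, the share of Unc5b was 61.1% in SOM and 13.3% in EMM, and that of Unc5c was 25.4% in SOM and 86.1% in EMM.

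**Figure D3:**
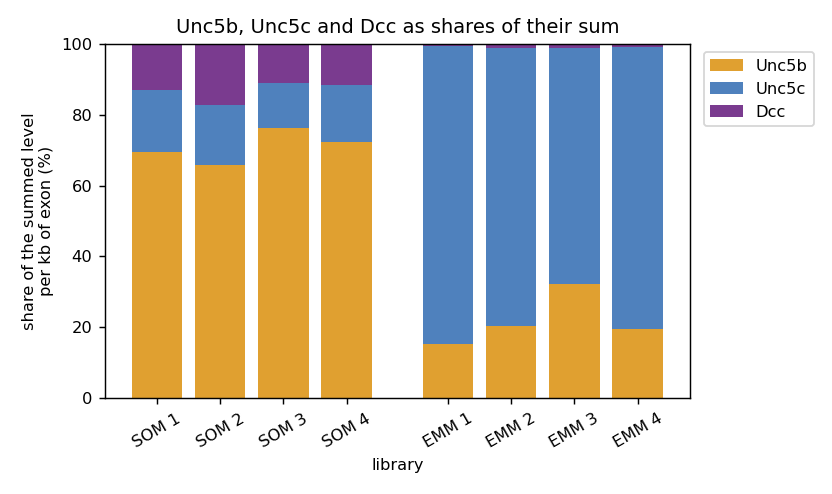
Levels of Unc5b, Unc5c and Dcc per kb of exon in each library, as percent of their sum. Unc5b takes 65.8% to 76.1% in the 4 SOM libraries at the left, and Unc5c takes 66.6% to 84.2% in the 4 EMM libraries at the right.

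**Figure D4:**
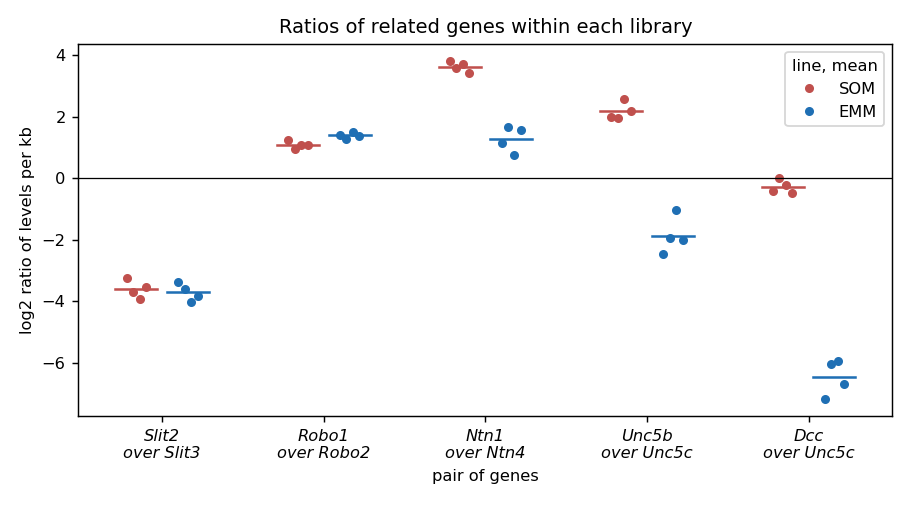
Log2 ratios of levels per kb for 5 pairs of related genes, with 1 point for each library, SOM to the left of EMM, and a line at each mean. The groups overlap for Slit2 over Slit3 and are apart for the other pairs, and for Unc5b over Unc5c they lie on opposite sides of 0.

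Levels can be set side by side only per length. In SOM, Robo1 was highest at 403 ± 22.5 normalized counts per kb of exon, followed by Slit3 at 277 ± 31.5, Ntn1 at 231 ± 12.2, Unc5b at 193 ± 33.1 and Robo2 at 190 ± 21.7 (SD, n = 4). Ntn1 and Unc5b overlapped, as did Unc5b and Robo2. Below them came Unc5c at 42.9 ± 6.96, Dcc at 35.2 ± 4.47, Slit2 at 22.9 ± 4.44, Ntn4 at 18.9 ± 3.01 and Slit1 at 1.53 ± 0.09, where Unc5c overlapped with Dcc and Slit2 with Ntn4.

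In EMM, Slit3 was highest at 661 ± 57.9 normalized counts per kb, followed by Robo1 at 464 ± 22.3, Unc5c at 208 ± 19.1, Robo2 at 178 ± 16.2 and Ntn1 at 147 ± 22.7 (SD, n = 4). Of these, Robo2 and Ntn1 overlapped. Then came Ntn4 at 60.8 ± 11.6, Unc5b at 59.7 ± 23.6, Slit2 at 51.0 ± 7.61, Slit1 at 2.87 ± 1.19 and Dcc at 2.48 ± 0.81, where Ntn4 overlapped with Unc5b, Unc5b with Slit2, and Slit1 with Dcc. The length matters most for Slit2, whose exons together span 25.4 kb while its longest transcript has 9.96 kb. With longest transcripts, 4 of the 10 places in the order were the same in SOM and 4 in EMM, and Slit3 came below Robo1 in EMM.

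The profiles most like those of the genes with the largest difference in each direction were found by the root mean square difference of log2 values over 8 libraries, each gene centred on its own mean, among 14248 other tested genes. For Dcc these were Spock1 at 0.29, Dmrt2 at 0.29 and Glis1 at 0.30. Glis1, which encodes a zinc finger protein, averaged 567 ± 52.0 normalized counts in SOM and 54.9 ± 13.7 in EMM (SD, n = 4 each). For Unc5c they were AI607873 at 0.09, 1190002N15Rik at 0.10 and Edil3 at 0.10. Edil3, which encodes a secreted integrin-binding protein, averaged 470 ± 85.7 in SOM and 2173 ± 221 in EMM.

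The 11 further genes of these families held 2 that were higher in SOM, 5 higher in EMM, 2 that did not pass and 2 not tested. The shares of all tested genes were 36.0% higher in SOM and 36.1% higher in EMM. These further genes had a median log2 difference of -0.53 where that of all tested genes was 0.01. A filter at 50 left out the low genes Dscam, Ntng2 and Unc5a, and 2 were then higher in SOM and 2 in EMM. Neo1, which encodes neogenin, a DCC relative that binds netrins and RGM proteins, averaged 5750 ± 426 normalized counts in SOM and 9521 ± 384 in EMM (SD, n = 4 each), with a log2 difference of -0.73 (limma adjusted p = 5.64e-09). Neo1 thus differed in the direction opposite to Dcc. Ntn3 averaged 2071 ± 144 in SOM and 2990 ± 105 in EMM, but it shares exonic bases with Tbc1d24 on its own strand and with BC028777 on the other, so its reads are uncertain. Robo4, the Robo of endothelium, was higher in SOM by 0.40 (limma adjusted p = 9.85e-05). Robo3, a receptor of commissural axons, held 12 reads in SOM and 32 in EMM and was not tested. Dscam, another netrin receptor, held 7 reads in SOM and 98 in EMM, and like Slit1 it entered the test only through its EMM libraries.

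Among 13 further ligands, co-receptors and binding partners, SOM had 3 higher and EMM had 7 higher, 2 did not pass and 1 was not tested. For all tested genes the shares were 36.0% and 36.1%. The median log2 difference of the list was -0.26. Nell2, a ligand of Robo3, averaged 185 ± 23.1 normalized counts in SOM and 17.7 ± 11.6 in EMM (SD, n = 4 each), a log2 difference of 3.50 (limma adjusted p = 1.22e-05). Draxin, a secreted protein that binds DCC and netrin-1, averaged 110 ± 6.75 in SOM and 32.3 ± 6.71 in EMM, with a log2 difference of 1.75, and Flrt3 was higher in SOM by 0.28 with overlapping groups. Dag1, which encodes dystroglycan, a binding partner of Slits, averaged 2977 ± 268 in SOM and 6970 ± 251 in EMM, with a log2 difference of -1.23. Flrt1, of a family that binds UNC5 receptors, and the latrophilin gene Adgrl3, which the table lists under an older symbol, had log2 differences of -1.23 and -0.80.

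Slit-Robo effectors, 19 genes in all, split into 5 higher in SOM, 11 higher in EMM and 3 that did not pass. The shares over all tested genes were 36.0% higher in SOM and 36.1% in EMM. The median log2 difference of these effectors was -0.17, and none reached 2-fold. In SOM the kinase gene Pak1 was higher by 0.67 and the kinase gene Abl1 by 0.32. The actin regulator gene Vasp had a log2 difference of -0.76, and the small GTPase genes Rhoa and Cdc42 had -0.59 and -0.50. The limma adjusted p of these 5 genes was at most 4.69e-06. Rhoa and Abl1 share exonic bases with genes on the opposite strand.

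Netrin receptor effectors, 15 genes in all, split into 5 higher in SOM, 8 higher in EMM, 1 that did not pass and 1 not tested. Over all tested genes, 36.0% were higher in SOM and 36.1% in EMM. The median log2 difference of this list was -0.13. Trim9, which encodes a ubiquitin ligase that binds DCC, averaged 36.3 ± 5.00 normalized counts in SOM and 270 ± 4.28 in EMM (SD, n = 4 each), a log2 difference of -2.87 (limma adjusted p = 1.26e-11), opposite in direction to Dcc. Trim9 shares exonic bases with genes on the opposite strand. Adam10, a protease that cuts many surface receptors, had a log2 difference of -0.96 and the actin-binding gene Ablim1 one of -0.71. The kinase gene Dapk1 was higher in SOM by 0.36, Tiam1 by 0.33 and the kinase gene Fyn by 0.25. The limma adjusted p of these 5 genes was at most 0.00197.

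**Figure D5:**
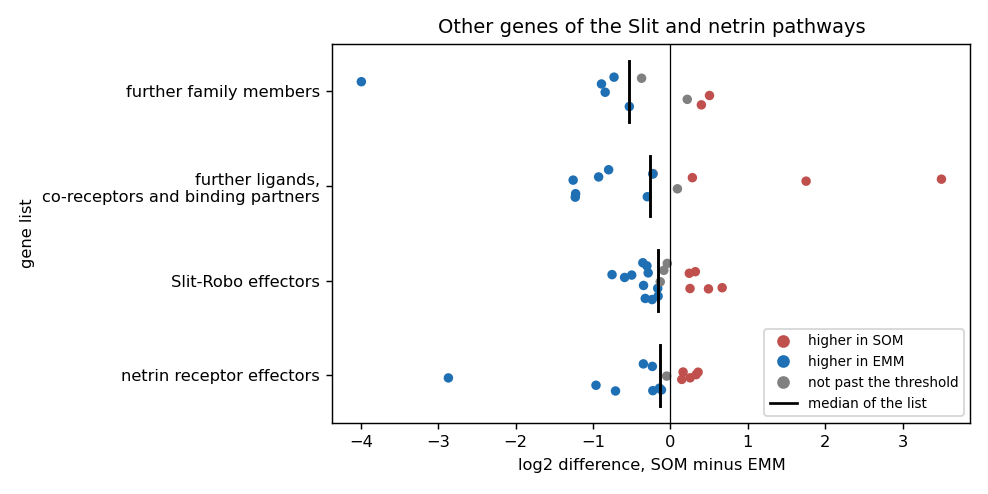
Log2 differences, SOM minus EMM, of the tested genes in 4 further lists, with 1 point for each gene, its colour for the call and a line at the median of each list. The medians lie between -0.53 and -0.13, and Nell2 at 3.50 and Trim9 at -2.87 lie far from the medians of their lists, as does Dscam, which had 7 reads in SOM.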

How the data were processed

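RNA was measured in 4 SOM and 4 EMM libraries. Per the labels' protocols, tissue was treated with dispase (3 U/ml, 37 C, 10 min). The submitters' processing notes name bcl2fastq, STAR, DESeq2 and build mm10. For counter, annotation and strand setting the sources used here give nothing. The authors deposited normalized counts (the signal of each gene), and with them a log2 fold change with its error, a Wald score and p-values, with positive folds higher in EMM.

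Genes with at least 10 normalized counts in at least 4 libraries were kept, and log2(value + 1) was fitted with limma 3.58.1 (trend, robust) in R 4.3.3. This scale understates low genes. The limma p-values set the difference between regions against the spread between pools, which the fit draws toward a trend over all genes. Every deposited value was a whole multiple of the value of 1 read within 1 ppm (100%), so reads were recovered and tested with edgeR 4.0.16 and DESeq2 1.42.0 as alternatives; edgeR called 5252 genes higher in SOM and 5058 in EMM. Floors cover counting error only. Lengths came from GENCODE M21. Hjv, Adgrl3 and Hbb-bs were matched by older symbols.

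On simulated SOM and EMM libraries of 14225 genes, the fit recovered 89.6% of 1.5-fold and 100% of 2-fold changes and called 5 of 14025 unchanged genes. In that simulation every gene had the same spread beyond sampling noise, and the few changed genes were not of low count. The rates are those of the simulation and may not hold for these data. Replicates differed by more than sampling noise, with chi-square per degree of freedom from 3.72 to 19.0. Genes were named by rule: the 10 genes, per further list and direction the 3 lowest adjusted p under 0.05 whose higher group averaged 100 or more, and the 3 nearest profiles; Robo3 and Dscam were named after their values were seen. One gene that the rule names is not reported here. The members and lists were chosen with earlier results of these data known.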

Additional observations from a re-analysis of the deposited data

Results flagged for a closer look

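Within a group of 4 libraries, 6 of 72 groups checked had a library far from the other 3 by Dixon's criterion, where chance gives about 1 in 20. Among the 10 genes this was Robo2 in EMM replicate 3, at 2612 normalized counts, with the other 3 between 3125 and 3212. Among the further genes, SOM replicate 4 was high for Abl1 at 8884 (the others 8309 to 8376) and for Neo1 at 6385 (5467 to 5580). SOM replicate 2 was low for Fyn at 1618 (the others 1752 to 1754) and for Vasp at 1671 (1879 to 1907). EMM replicate 3 was high for Vasp at 3292 (3015 to 3058).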

How the results depend on the processing

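Dcc, Unc5b, Unc5c, Ntn1, Ntn4, Slit2, Slit3 and Robo1 kept their direction and call under every alternative, and Robo2 passed under none (log2 differences of 0.01 to 0.16). Over the alternatives the log2 difference of Dcc ran from 3.66 to 4.21 and that of Unc5c from -2.44 to -2.20. Slit1 was not called with DESeq2 (-0.87), ran from -0.79 to -0.74 with single SOM libraries left out, and could not be tested without any 1 EMM library or with a filter at 50. With SOM replicate 4 and EMM replicates 2 and 3 all left out, a choice made after seeing their high keratin or globin values, 3 netrin receptor effectors were higher in SOM. With a filter at 50, 2 further family members were higher in EMM, against 5 with the filter at 10.

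Whether the replicate numbers pair the libraries is not settled by these values. Correlations of deviations ran from -0.0199 to 0.126 between same-numbered libraries and from -0.145 to 0.103 between the others. Of the same-numbered pairs, SOM replicate 1 with EMM replicate 1 alone was over 0.1, and it was the highest of all pairs. With replicate number as a block, 5103 genes were higher in SOM and 5146 in EMM. For the ratios, 4 pairs allow no p below 0.125 and 3 against 4 libraries none below 0.0571, so the losses there are set by the number of libraries. Both groups hold the same replicate numbers, so the block cannot change a mean difference. The SOM minus EMM differences were therefore the same with it, at -0.30 for Robo1 over Robo2, 2.34 for Ntn1 over Ntn4, 4.04 for Unc5b over Unc5c and 6.17 for Dcc over Unc5c. With 1 library left out they ran from -0.35 to -0.26, 2.17 to 2.47, 3.84 to 4.32 and 5.93 to 6.34 in that order, and Slit2 over Slit3 from -0.02 to 0.20, reversed at -0.024 without SOM replicate 1 and -0.01 without EMM replicate 3. Low counts limit Slit1, Robo3 and Dscam.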
